A study of Homo sapiens with 6 samples.

Results

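The 10 genes described here are members of the BCL2 family, whose proteins decide at the outer mitochondrial membrane whether a cell survives: MCL1, BCL2 and BCL2L1 (BCL-XL), which hold cells alive, BAX and BAK1, which form the pores, and the BH3-only genes BCL2L11 (BIM), PMAIP1 (NOXA), BBC3 (PUMA), BMF and BAD. They were taken as every probe set annotated to 1 of these genes and to no other, which gave 30 probe sets for 9 of the 10 genes, among 19775 genes named on the array. BBC3 has 1 probe set, which is also annotated to 2 microRNA genes, so no value is given for BBC3. RNA came from CD24+ and CD24− cells of OPM2, ARP1 and OCI-MY5, established human lines of multiple myeloma (the malignancy of plasma cells), kept in RPMI-1640 with serum and antibiotics, and no drug is named in the labels. The fractions were separated on a cytometer by staining for CD24, a surface glycoprotein, and each line gave 1 Affymetrix U133 Plus 2.0 array per fraction. There were thus 3 arrays per fraction and 2 per line, and that number limits the precision of every value. Each line descends from 1 tumour, and no label says that cultures were repeated, so the p-values below measure the spread between these arrays.

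As background, the prosurvival proteins bind and hold back BAX and BAK1, and the BH3-only proteins set them free by occupying the same groove. NOXA binds mainly MCL1, BAD binds BCL2 and BCL-XL, and BIM and PUMA bind all of them. Myeloma cells are known for their dependence on MCL1, and drugs that mimic BH3 proteins act on one or another of the survival proteins, which is why the balance between MCL1, BCL2 and BCL2L1 is of interest in this cancer. The values below are RNA signals and say nothing of protein, which for MCL1 turns over fast. On an array the level of 1 probe set cannot be set against that of another, so only differences between arrays are compared, for single probe sets and for ratios within an array.

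Markers of plasma cells were present. All 10 plasma cell markers were above the bacterial TrpnX background controls on all 6 arrays, with summed intensities of 115241 to 290908 in CD24+ and 111498 to 214435 in CD24− arrays. Of 17 markers of other cell types 3 were above these controls on all 6 arrays, with sums of 1322 to 4345 in CD24+ and 1534 to 2991 in CD24− arrays. By line these sums were 290908 (CD24+) and 214435 (CD24−) in OPM2, 152723 and 155782 in ARP1 and 115241 and 111498 in OCI-MY5 for plasma cell markers, and 4345 and 2991, 1419 and 1535, and 1322 and 1534 for the others. OPM2 thus had the highest sums for both lists, but single genes carried much of them. HBB alone was at 2298 and 1792 in OPM2 and at 76.2 to 225 in the other lines. JCHAIN was at 152284 (CD24+) and 73307 (CD24−) in OPM2, beside 78323 and 82706 in ARP1. MZB1 was lowest in OPM2, at 4194 and 3792. The sums therefore do not rank the lines on every marker. In such bulk RNA fewer cells of a type and less RNA per cell cannot be told apart. CD24 itself gave no check of the sort: all 6 of its probe sets were too dim to test, and none was above these controls on more than 3 arrays. The CD24+ array of OPM2 stood apart, with spike-in controls at 37362 (geometric mean), where the other 5 arrays had 6175 to 7399, and with a median of 135 beside 69.0 to 84.2. The ratio of 3′ to 5′ ACTB signal, which grows as RNA or its copies shorten, was 27.1 on the CD24+ array of OPM2 and 23.2 on the CD24− array of OCI-MY5, and 2.47 to 9.36 on the rest. Several line differences below are also given without 1 or the other of these arrays.

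In all, 3 members had a probe set that differed between lines at an adjusted p under 0.05: BCL2, BCL2L11 and BMF. This counts any probe set in any comparison of lines, and the share of all genes called in that way was not computed. By comparison, 15.5% (OPM2 against ARP1), 15.3% (OPM2 against OCI-MY5) and 0.348% (ARP1 against OCI-MY5) of all probe sets tested passed. The count is therefore not read as a result about the family. The promoters of these members are shown because they had a called line difference. Being called does not set them apart from all other members, since MCL1, not called, had no overlap between lines on its brightest probe set. Each promoter is a window of 300 bases around an annotated start in the RefSeq annotation of GRCh38.p14. It is written 5′ to 3′ on the strand of the gene, with GC boxes (GGGCGG or its complement) in capitals. BCL2 lies on the minus strand at chr18:63319720-63320019, BCL2L11 on the plus strand at chr2:111120664-111120963, and BMF on the minus strand at chr15:40108830-40109129, the upstream one of 2 annotated starts. In the same annotation MCL1 spans chr1:150574558-150579610, BCL2 chr18:63123346-63320090 and BCL2L1 chr20:31664452-31723963. The BCL2 window thus lies inside the span of the gene and does not reach its 5′ end, so its motif counts hold for that window only.
BCL2: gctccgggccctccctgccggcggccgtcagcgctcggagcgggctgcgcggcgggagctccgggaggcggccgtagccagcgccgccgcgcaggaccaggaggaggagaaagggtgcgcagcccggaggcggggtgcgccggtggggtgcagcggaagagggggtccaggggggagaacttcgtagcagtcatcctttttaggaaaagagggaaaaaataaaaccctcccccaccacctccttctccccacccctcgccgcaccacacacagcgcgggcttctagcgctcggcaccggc
BCL2L11: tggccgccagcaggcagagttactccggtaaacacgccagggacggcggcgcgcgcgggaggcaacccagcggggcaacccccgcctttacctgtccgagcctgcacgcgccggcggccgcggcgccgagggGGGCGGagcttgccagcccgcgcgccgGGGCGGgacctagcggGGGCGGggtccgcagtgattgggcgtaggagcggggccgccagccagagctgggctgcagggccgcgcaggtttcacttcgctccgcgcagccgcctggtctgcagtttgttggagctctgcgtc
BMF: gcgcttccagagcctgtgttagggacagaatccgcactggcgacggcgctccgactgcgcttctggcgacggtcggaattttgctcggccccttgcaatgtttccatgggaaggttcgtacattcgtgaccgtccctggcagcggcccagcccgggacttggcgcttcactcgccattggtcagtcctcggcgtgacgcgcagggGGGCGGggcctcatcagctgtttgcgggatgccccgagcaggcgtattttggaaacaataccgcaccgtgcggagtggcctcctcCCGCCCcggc
The window held 3 GC boxes for BCL2L11, 2 for BMF and 0 for BCL2, and the window at the other start of BMF (chr15:40106917-40107216) held 0 GC boxes and 0 CCAAT boxes. GC boxes occur in 45.0% of the 35116 promoters of the same length. A CCAAT box was found once in BCL2L11 and once in the upstream window of BMF, against 34.6% of all promoters, on either strand. The motif TATAAA was in none of the 4 windows, against 11.5%, and neither was the E-box CACGTG, against 7.26%. These letters are descriptions and not sites.

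BCL2, the survival protein that the drug venetoclax binds, was higher in OPM2 than in ARP1. Its brightest probe set, 203685_at, had intensities of 2354 (CD24+) and 1356 (CD24−) in OPM2, 521 and 459 in ARP1, and 2392 and 1902 in OCI-MY5. Both ARP1 arrays lay below all 4 others, and OPM2 and OCI-MY5 overlapped. BCL2 was 3.57-fold higher in OPM2 than in ARP1, a difference of 1.84 ± 0.33 (log2(intensity + 16), standard error; limma, adjusted p = 0.0257 over the 27307 probe sets tested), and 4.26-fold lower in ARP1 than in OCI-MY5 without passing the test (−2.09 ± 0.33, limma, adjusted p = 0.0789). Between OPM2 and OCI-MY5 it differed by −0.25 ± 0.33 (limma, adjusted p = 0.625), and by −0.65 without the CD24+ array of OPM2. The call between OPM2 and ARP1 held in 12 of 17 alternatives; it was lost without a filter on dim probe sets (limma, adjusted p = 0.0923) and without either array of ARP1 or of OCI-MY5 (0.0661 to 0.148), and held without the CD24+ array of OPM2.

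The other probe sets of BCL2 did not show the low level in ARP1 to this extent. On 203684_s_at intensities were 137 and 121 in OPM2, 63.1 and 87.0 in ARP1, and 84.6 and 71.7 in OCI-MY5. On 207004_at OPM2 had 206 and 185, ARP1 had 64.3 and 218, and OCI-MY5 had 74.99 and 155 (CD24+ first). On 207004_at the arrays of ARP1 spanned those of both other lines. OPM2 was the highest line on 203684_s_at, by 0.68 ± 0.24 over ARP1 and 0.62 ± 0.24 over OCI-MY5 (limma, adjusted p = 0.118 and 0.143), while ARP1 and OCI-MY5 differed by only −0.06 ± 0.24. The fourth, 207005_s_at, was too dim to test, with intensities from 4.74 to 89.4. Which BCL2 transcripts each probe set binds is not given in the files.

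MCL1, the survival gene myeloma cells are known to lean on, was highest in ARP1 on its brightest probe set, without passing the test. That probe set, 200797_s_at, had intensities of 12246 and 11150 in OPM2, 20121 and 22762 in ARP1, and 15888 and 14018 in OCI-MY5, CD24+ first. The 3 lines did not overlap on it, and OPM2 was lowest. OPM2 was 1.83-fold lower than ARP1, just short of the threshold (−0.87 ± 0.21, limma, adjusted p = 0.0527). This difference passed in 4 of 17 alternatives, such as 1 probe set per gene (limma, adjusted p = 0.0268). Those 4 settings called more over the whole array, 20.9% to 36.1% of all probe sets tested, against 15.5% in the main fit. On 200798_x_at, whose name marks probes that can bind related transcripts, intensities of 7753 to 10922 gave no such order, and OPM2 differed from ARP1 by 0.01 ± 0.23. The probe sets 214056_at and 214057_at differed between OPM2 and ARP1 by 0.0027 ± 0.22 and −0.06 ± 0.37, the second being −0.50 without the CD24+ array of OPM2. The difference between OPM2 and ARP1 was thus seen on 1 of the 4 tested probe sets of MCL1.

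BCL2L1, which encodes BCL-XL and by splicing also a shorter form that promotes death, had intensities on 212312_at of 311 and 392 in OPM2, 257 and 339 in ARP1, and 305 and 151 in OCI-MY5. The lines overlapped, and the CD24− array of OCI-MY5 was the lowest. OPM2 differed from ARP1 by 0.23 ± 0.38 and from OCI-MY5 by 0.66 ± 0.38 (limma, adjusted p = 0.703 and 0.283), and without the CD24− array of OCI-MY5 the second was 0.19. Its 231228_at differed by −0.05 ± 0.40 and −0.08 ± 0.40, and the other 2 probe sets were too dim to test.

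**Figure D1:**
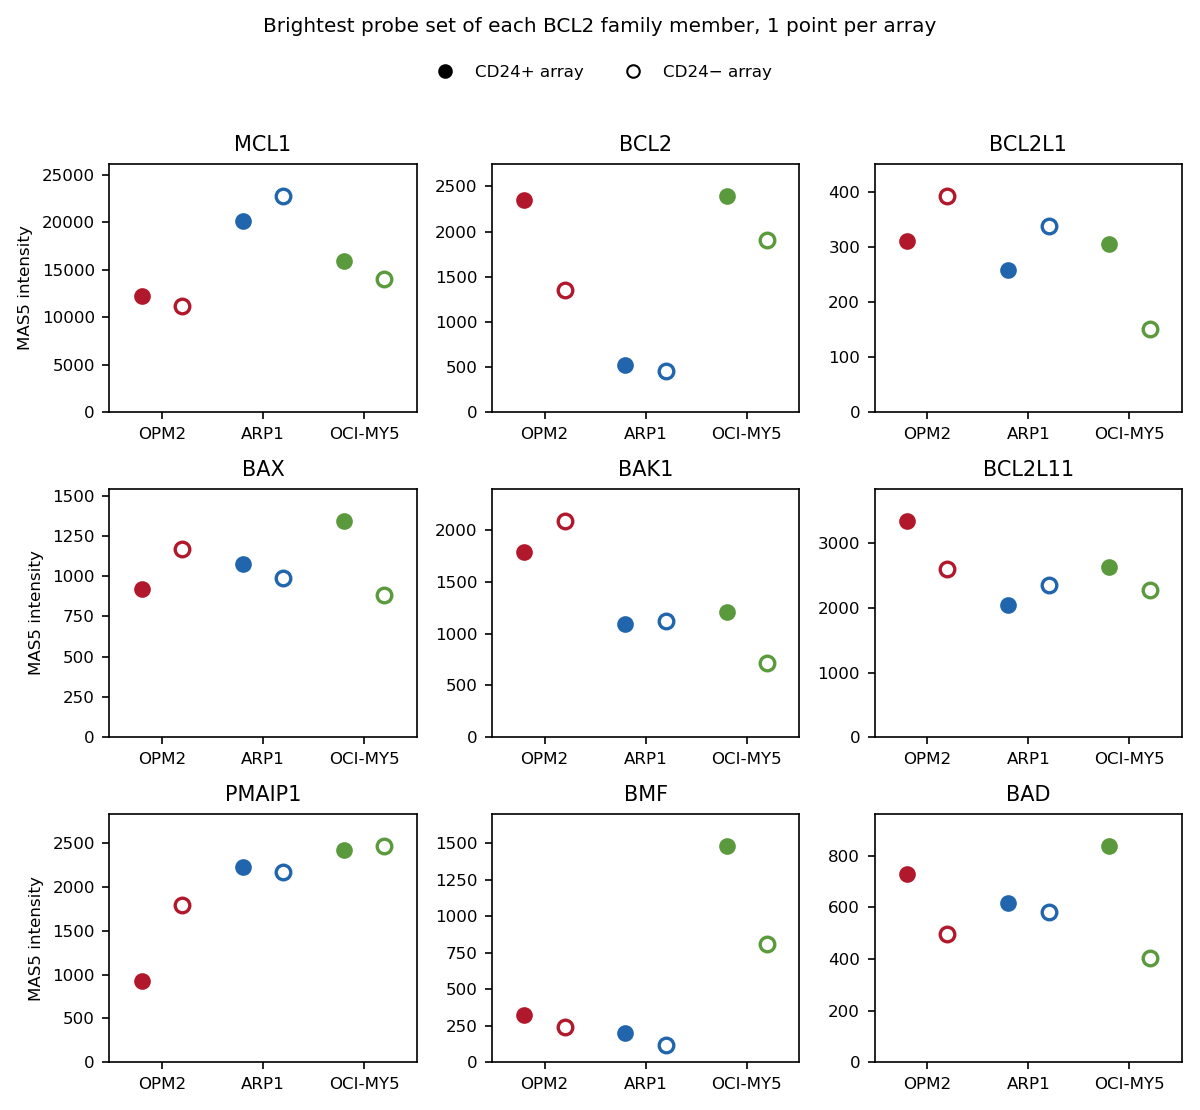
Each panel gives 1 gene, with MAS5 intensity on a linear axis that starts at 0, for its brightest probe set; each point is 1 array, filled for CD24+ and open for CD24−, with OPM2, ARP1 and OCI-MY5 from left to right. BCL2 is at 459 to 521 in ARP1 and at 1356 or more elsewhere, BMF is at 812 or more in OCI-MY5 and at 325 or less elsewhere, and PMAIP1 is at 928 on the CD24+ array of OPM2.

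Of the pore formers, BAK1 was higher in OPM2 without passing the test, and BAX did not separate the lines. BAK1, on its 1 probe set, had intensities of 1783 and 2085 in OPM2, 1096 and 1123 in ARP1, and 1206 and 722 in OCI-MY5. Both OPM2 arrays lay above the other 4, and the difference was 0.79 ± 0.30 over ARP1 and 1.03 ± 0.30 over OCI-MY5 (limma, adjusted p = 0.141 and 0.0805); the second passed with the filter at the 75th percentile (0.0247) and with an intensity trend in the variance (0.0207). BAX had intensities on 211833_s_at of 918 and 1165 in OPM2, 1074 and 991 in ARP1, and 1341 and 885 in OCI-MY5, all overlapping, and OPM2 minus OCI-MY5, −0.07, was 0.10 without the CD24+ array of OPM2 and −0.37 without the CD24− array of OCI-MY5. Its 208478_s_at gave 345 and 859 for OPM2, 988 and 916 for ARP1, and 857 and 360 for OCI-MY5. The lowest values of both BAX probe sets were those of the CD24+ array of OPM2 and the CD24− array of OCI-MY5, the arrays with the highest ACTB ratios. Without the CD24+ array of OPM2 the difference between OPM2 and ARP1 on 208478_s_at was −0.14 in place of −0.78, and between OPM2 and OCI-MY5 it turned from −0.03 to 0.61; without the CD24− array of OCI-MY5 that between OPM2 and OCI-MY5 was −0.63. For BAK1 the difference between OPM2 and OCI-MY5 was 0.67 without the CD24− array of OCI-MY5.

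That held for 5 of the 25 member probe sets tested (20.0%), against 4.29% of all probe sets tested: both of BAX, 1861_at of BAD, 1553096_s_at of BCL2L11 and 214056_at of MCL1. None had its highest 2 values on those arrays, against 4.08% of all. The part of RNA length in these values was not tested.

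BCL2L11, the gene of BIM, which can also engage BAX and BAK1 directly, tended to be highest in OPM2, and 3 of its 7 probe sets passed the test. On 222343_at intensities were 456 and 439 in OPM2, 208 and 213 in ARP1, and 251 and 216 in OCI-MY5. OPM2 was 2.05-fold higher than ARP1 (1.03 ± 0.21, limma, adjusted p = 0.0321) and 1.86-fold higher than OCI-MY5 (0.90 ± 0.21, limma, adjusted p = 0.0452), and its arrays did not overlap with the rest. Against OCI-MY5, 1558143_a_at (1.21 ± 0.23, adjusted p = 0.0267) and 1553088_a_at (1.37 ± 0.31, adjusted p = 0.0459) were also higher in limma's test. The brightest probe set, 225606_at, did not pass: its intensities were 3340 and 2597 in OPM2, 2050 and 2355 in ARP1, and 2627 and 2273 in OCI-MY5, with differences of 0.42 ± 0.24 and 0.27 ± 0.24. On the intensities as deposited, OPM2 was the highest line by its mean on all 7. It lay 0.04 to 1.03 above ARP1 and 0.21 to 1.37 above OCI-MY5. These 7 were read on the same arrays and are not independent. Centring lowers the OPM2 difference of every probe set alike. For 222343_at it fell from 1.03 to 0.77 against ARP1 and from 0.90 to 0.50 against OCI-MY5. Differences as small as 0.04 and 0.21 then turn negative, so OPM2 was not highest on all 7 after centring. Centring the arrays, which shifts the median difference of all probe sets from 0.0036 to −0.26 against ARP1 and from 0.07 to −0.33 against OCI-MY5, ended all 4 BCL2L11 calls (limma, adjusted p = 0.139 to 0.466). So did the fraction as a covariate (0.0541 to 0.0754), testing without a filter on dim probe sets (0.123 to 0.186) and leaving out any 1 array of ARP1 or OCI-MY5 (0.0803 to 0.239), while without the CD24+ array of OPM2 only 222343_at against OCI-MY5 was lost (0.0664). For 225606_at the log2 difference between OPM2 and ARP1 was 0.24 without that array, and between OPM2 and OCI-MY5 it was 0.09.

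BMF, whose protein is tied to the cytoskeleton until it is released, was high in 1 line. Its 1 probe set had intensities of 325 and 243 in OPM2, 201 and 122 in ARP1, and 1478 and 812 in OCI-MY5. Both OCI-MY5 arrays lay above the other 4. BMF was 3.75-fold lower in OPM2 than in OCI-MY5 (−1.90 ± 0.40, limma, adjusted p = 0.0369) and 6.42-fold lower in ARP1 (−2.68 ± 0.40, adjusted p = 0.0741, not passing). The call between OPM2 and OCI-MY5 held in 8 of 17 alternatives and was lost without any 1 of the 6 arrays (limma, adjusted p = 0.0598 to 0.156), with values of −2.33 to −1.48. BMF and BCL2 were thus both lowest in ARP1, and differed in OPM2, where BMF was below its level in OCI-MY5 and BCL2 overlapped with it.

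PMAIP1, the gene of NOXA, was even in 2 lines and lower in OPM2 without passing the test, most of all on the CD24+ array of OPM2. On 204285_s_at intensities were 928 and 1792 in OPM2, 2229 and 2163 in ARP1, and 2414 and 2458 in OCI-MY5. On 204286_s_at OPM2 had 276 and 1218, ARP1 had 1607 and 1581, and OCI-MY5 had 1659 and 1657. On both probe sets both OPM2 arrays lay below every array of the other lines, and the CD24+ array of OPM2 was the lowest. Within ARP1 and OCI-MY5 the fractions of PMAIP1 differed by −0.03 to 0.04 (log2), and in OPM2 by −0.94 and −2.08 on these probe sets. Against OCI-MY5 the log2 difference of OPM2 was −0.91 ± 0.35 on 204285_s_at and −1.48 ± 0.67 on 204286_s_at (limma, adjusted p = 0.141 and 0.191). The first passed with an intensity trend in the variance (limma, adjusted p = 0.048). OPM2 was lower than ARP1 by a log2 difference of −0.76 ± 0.35 on 204285_s_at and −1.42 ± 0.67 on 204286_s_at. Neither passed (limma, adjusted p = 0.193 and 0.202). Without the CD24+ array the difference was −0.29 on 204285_s_at and −0.38 on 204286_s_at (limma, adjusted p = 0.363 and 0.247). Without its CD24− array OPM2 was lower than ARP1 by a called difference (−1.23, limma, adjusted p = 0.0194), with OPM2 then represented by its CD24+ array alone, the one with the high spike-ins and ACTB ratio. BAD, a BH3-only protein controlled by phosphorylation, had intensities on 209364_at of 728 and 498 in OPM2, 618 and 580 in ARP1, and 836 and 405 in OCI-MY5. On it the lines overlapped, and differed by 0.01 to 0.05, each with a standard error of 0.40. Without the CD24+ array of OPM2 its differences turned to −0.26 against ARP1 and −0.22 against OCI-MY5. Without the CD24− array of OCI-MY5, OPM2 and ARP1 differed from OCI-MY5 by −0.46 and −0.47. On 1861_at OPM2 minus ARP1 was −0.25, OPM2 minus OCI-MY5 0.31 and ARP1 minus OCI-MY5 0.56 (each ± 0.40). On the dim 232660_at they were 0.07, 0.77 and 0.69 (each ± 0.64), and none passed.

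In counts, 2 of 25 member probe sets passed between OPM2 and ARP1 (8%), against 15.5% of all 27307 probe sets tested; both were higher in OPM2, as were 6.17% of all, while 0 members and 9.35% of all were lower. Between OPM2 and OCI-MY5 4 passed (16%), against 15.3% of all: 3 were higher in OPM2, against 6.77% of all, and 1 was lower, against 8.49%. With the arrays centred 1 passed in each, BCL2 higher and BMF lower. Between ARP1 and OCI-MY5 0 passed, against 0.348% of all, and 2 (8%) had an unadjusted p under 0.05, against 18.5% of all. Without the CD24+ array of OPM2 1 passed there, BCL2 (−2.09, limma, adjusted p = 0.0445). The shares called are below or near those of the array as a whole. Markers moved with the same comparisons: of the 10 plasma cell markers 4 were called higher and 1 lower in OPM2 than in ARP1, and 5 higher than in OCI-MY5, among them SLAMF7, a surface receptor of plasma cells (3.12 ± 0.22 and 4.43 ± 0.22, limma, adjusted p = 0.00231 and 0.00101). Of 7 tested markers of other cell types HBB, a globin of red cells, was higher, at 2298 and 1792 in OPM2 and 76.2 to 225 in the other lines (3.78 ± 0.55 and 3.72 ± 0.55, adjusted p = 0.0148 and 0.0149), and PAX5, a factor of B cells, was lower, at 16.4 and 15.9 in OPM2 and 272 to 421 in the others (−3.37 ± 0.25 and −3.60 ± 0.25, adjusted p = 0.00284 and 0.00231). Their part in the differences of the members was not tested. The median difference of the 25 was 0.07 between OPM2 and ARP1, 0.21 between OPM2 and OCI-MY5 and 0.14 between ARP1 and OCI-MY5, beside 0.0036, 0.07 and 0.06 for all probe sets. Of the 30 probe sets 5 were too dim to test: 2 of MCL1, 2 of BCL2L1 and 1 of BCL2. Line took a median of 56.6% of the sum of squares of the member probe sets, from 0.369% for 209364_at of BAD to 98.2% for 222343_at of BCL2L11, against a median of 71.1% over all probe sets.

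**Figure D2:**
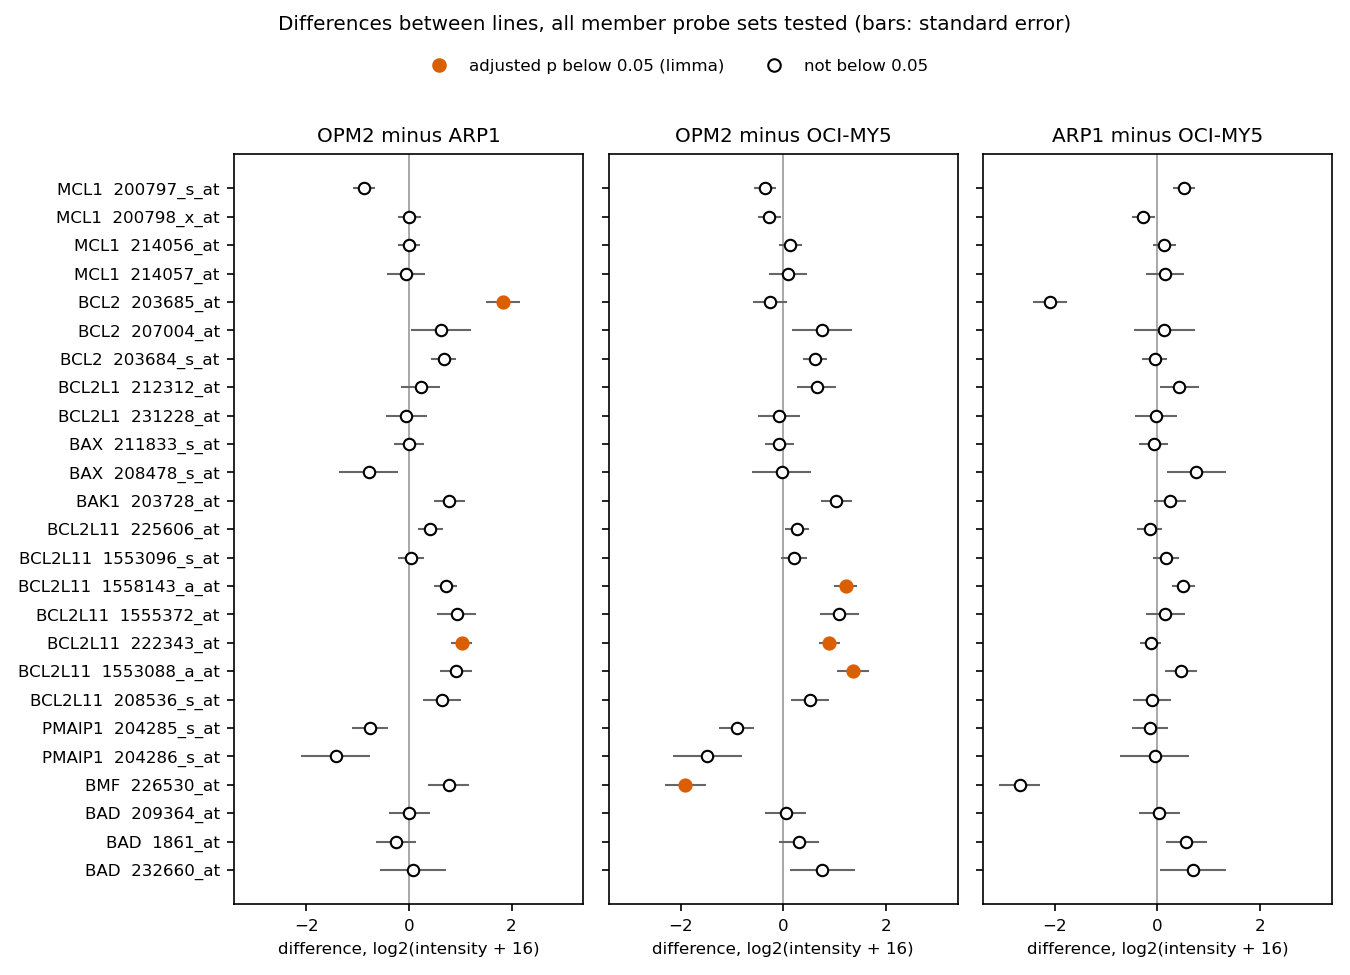
Differences between lines for the 25 member probe sets tested, on the log2(intensity + 16) scale with standard errors as bars; filled points passed limma's test at an adjusted p of 0.05. The 2 filled points between OPM2 and ARP1 are BCL2 203685_at and BCL2L11 222343_at, the 4 between OPM2 and OCI-MY5 are 3 of BCL2L11 and BMF, and none is filled between ARP1 and OCI-MY5.

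A common factor on an array's intensities cancels in a ratio within that array but for the added 16, while other scalings, such as quantile normalization, can change the ratio. Differences between arrays show how the balance of the survival genes shifts. The log2 ratio of MCL1 to BCL2, on brightest probe sets, was 2.37 (CD24+) and 3.02 (CD24−) for OPM2, 5.23 and 5.58 for ARP1, and 2.72 and 2.87 for OCI-MY5. ARP1 stood apart, with a ratio 6.54 times that of OPM2 and 6.10 times that of OCI-MY5, while the fractions of a line differed by 0.15 to 0.65 in size. The spread of 2.71 between line means had p = 0.2 in the exact permutation test of line labels, where OPM2 and OCI-MY5 overlap and 0.0667 is the smallest that 15 pairings allow. With the mean of all probe sets past the filter the spread was 1.28.

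The log2 ratio of MCL1 to BCL2L1 was 5.23 and 4.77 in OPM2, 6.20 and 6.01 in ARP1, and 5.63 and 6.39 in OCI-MY5. Both OPM2 arrays lay below the other 4, by 1.102 against ARP1 and 1.01 against OCI-MY5 on the means, which is 2.15 and 2.01 times (exact permutation test of line labels, p = 0.2). With the mean of the probe sets past the filter the spread between lines was 0.39 in place of 1.102, and without the CD24− array of OCI-MY5 OPM2 was below OCI-MY5 by a log2 difference of −0.63. The log2 ratio of BCL2 to BCL2L1, a pair often read together when BCL2 inhibitors are considered, was 2.86 and 1.75 in OPM2, 0.97 and 0.42 in ARP1, and 2.91 and 3.52 in OCI-MY5. The 3 lines did not overlap. The ratio was 3.04 times as high in OPM2 as in ARP1, and in ARP1 it was 5.72-fold lower than in OCI-MY5 (exact permutation test of line labels, p = 0.0667, the smallest possible). With the mean of all probe sets of each gene the spread between lines was 1.07 in place of 2.52. Without the CD24+ array of OPM2 the log2 difference between OPM2 and ARP1 was 1.05 in place of 1.61 for this ratio, and −2.38 in place of −2.71 for MCL1 to BCL2, while OPM2 minus OCI-MY5 turned from −0.10 to 0.23 for MCL1 to BCL2. The difference in BCL2 to BCL2L1 between OPM2 and OCI-MY5, −0.91, was −1.46 without that array and −0.60 without the CD24− array of OCI-MY5.

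**Figure D3:**
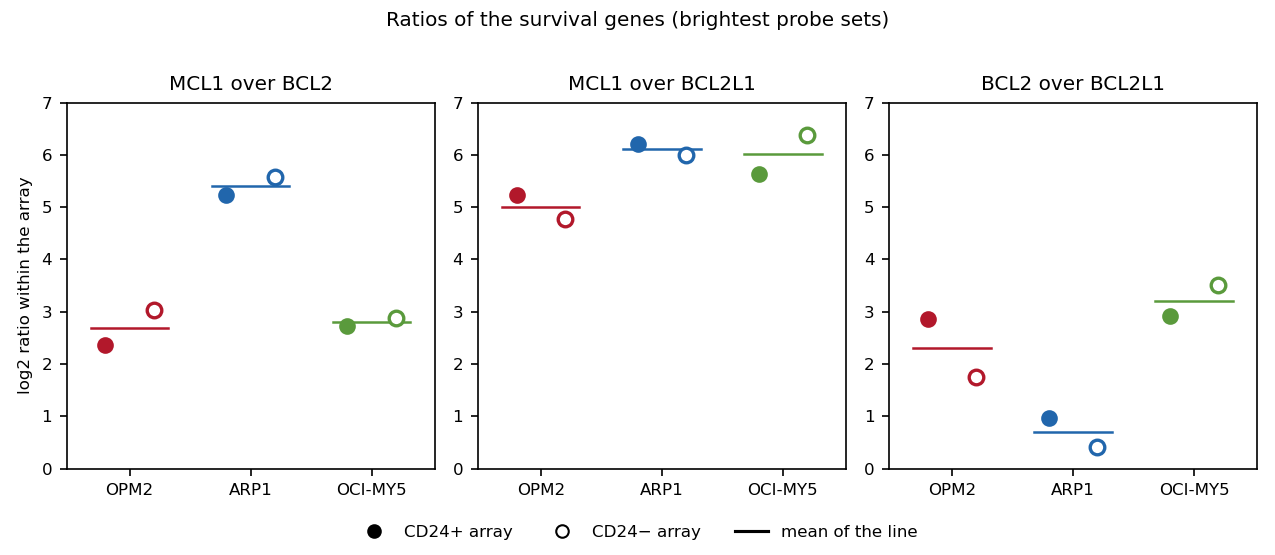
Log2 ratios of MCL1 to BCL2, MCL1 to BCL2L1 and BCL2 to BCL2L1 within each array; filled points are CD24+, open points CD24−, and a bar marks the mean of the line. ARP1 has the highest MCL1 to BCL2 ratio, 5.23 and 5.58, and the lowest BCL2 to BCL2L1 ratio, 0.97 and 0.42; heights depend on the probes and only differences between arrays carry meaning.

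Between the sorted fractions, the question the study set, no member passed the test. Of 25 member probe sets 0 passed limma's test (lowest adjusted p = 0.99996), and 0 had an unadjusted p under 0.05, against 0 (0%) and 362 (1.33%) of all 27307. With the cell line as a block 0 passed as well, against 0% of all. Adjusted p on the brightest probe sets was then 0.825 to 0.964 (limma). With the block 1 member probe set had an unadjusted p under 0.05. The share of all probe sets at that level was not computed for the block, so this count is not read further. Of the 25, 4 were higher in CD24+ cells of all 3 lines, as were 16.6% of all, and 1 was lower, as were 12.6%; the 1 lower was 200798_x_at of MCL1 (−0.21 ± 0.08, SD, n = 3 lines). On brightest probe sets 3 genes had higher values in CD24+ cells of all 3 lines, which is so for 16.9% of genes, and 0 had lower ones, against 12.2%.

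These 3 were BMF, BAD and BCL2. BMF differed by 0.40 for OPM2, 0.65 for ARP1 and 0.85 for OCI-MY5, a mean of 0.63 ± 0.23 (CD24+ minus CD24−, log2, SD, n = 3 lines). In the same order of lines BAD differed by 0.53, 0.09 and 1.02 (0.55 ± 0.46), and BCL2 by 0.79, 0.18 and 0.33 (0.43 ± 0.32). For BCL2 the other tested probe sets had means of −0.01 and −0.77, and for BAD 0.15 and −0.42, so neither direction was shared by all probe sets of the gene. With quantile normalization the 3 genes kept their sign in every line, and after centring on the array median BCL2 alone did (0.01, 0.06 and 0.23). The median over the 25 probe sets was 0.08, beside 0.03 for all. MCL1 differed by 0.05 ± 0.20 and BCL2L11 by 0.12 ± 0.29.

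For the ratios the tests between fractions could not pass 0.05 with 3 lines, so they are given as values. MCL1 to BCL2 averaged 3.44 ± 1.56 in CD24+ and 3.83 ± 1.52 in CD24− arrays (log2, SD, n = 3; exact permutation p = 0.5, two-sided, where 0.1 is the smallest possible). Within lines it was lower in CD24+ cells of all 3, by a mean difference of −0.39 ± 0.25 (SD over lines), with −0.65 for OPM2, −0.35 for ARP1 and −0.15 for OCI-MY5 (exact sign-flip p over the lines = 0.25, the smallest possible), but with the mean of all probe sets the difference turned to 0.15. MCL1 to BCL2L1 averaged 5.69 ± 0.49 in CD24+ and 5.72 ± 0.84 in CD24− arrays (exact permutation p = 1). BCL2 to BCL2L1 averaged 2.25 ± 1.103 in CD24+ and 1.90 ± 1.55 in CD24− arrays (exact permutation p = 0.9; n = 3 per fraction). For both of these OPM2 and ARP1 went one way and OCI-MY5 the other.

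**Figure D4:**
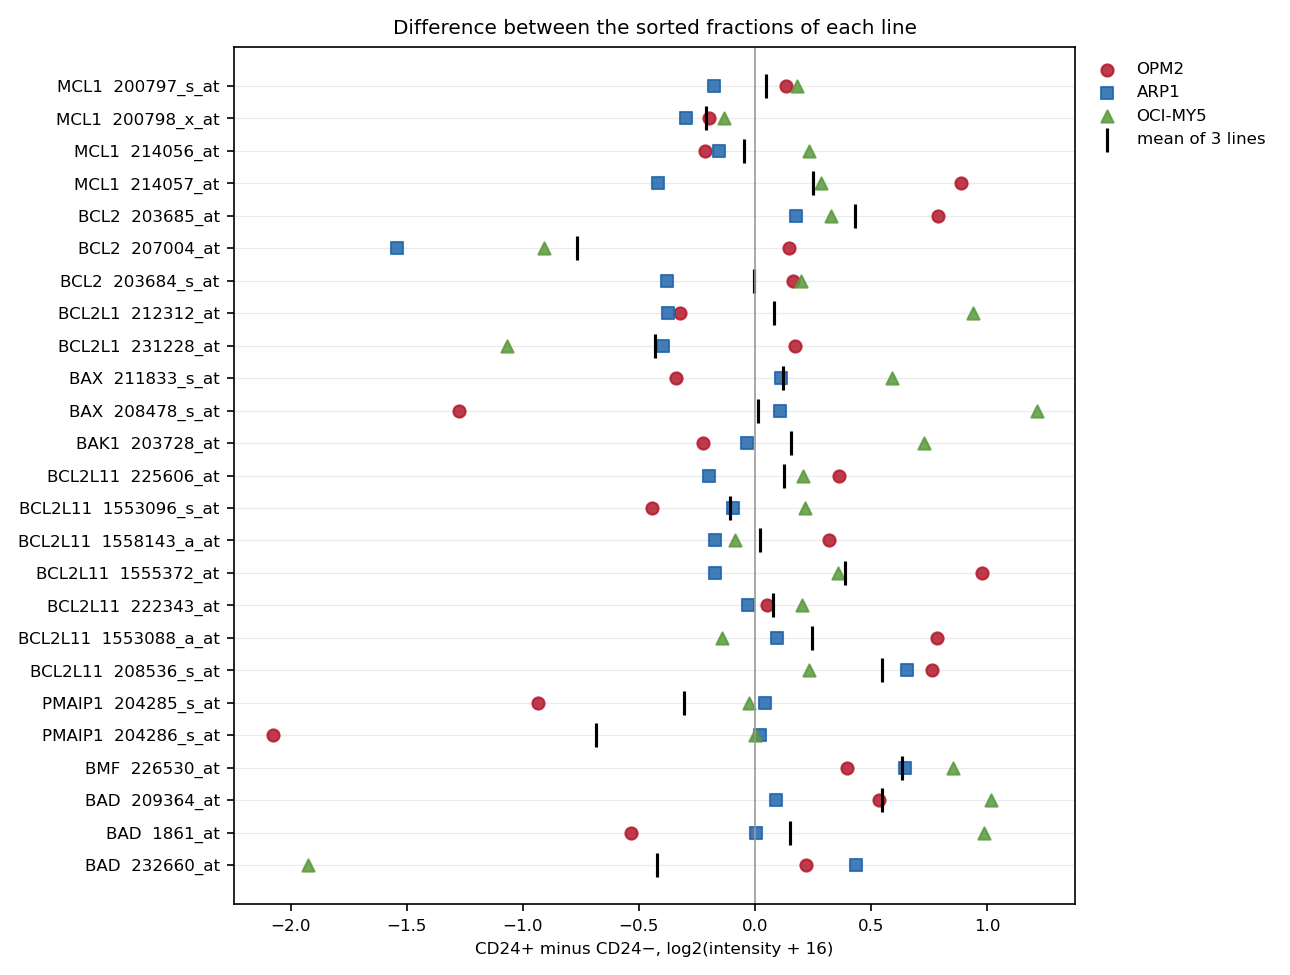
Difference between CD24+ and CD24− arrays on the log2(intensity + 16) scale for the 25 member probe sets tested, with 1 point per line and a tick at the mean of the 3 lines. The widest points are −2.08 for PMAIP1 204286_s_at in OPM2 and −1.93 for BAD 232660_at in OCI-MY5, and those of ARP1 run from −1.54 for BCL2 207004_at to 0.65 for BCL2L11 208536_s_at.

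Other genes of the pathway, on brightest probe sets, had calls between OPM2 and each of the other lines, and none between the fractions. Of 10 other BCL2 family genes tested, 1 was called higher and 2 lower in OPM2 than in ARP1, and 1 higher and 1 lower than in OCI-MY5, while 18.0% and 18.5% of all genes were called (6.71% higher and 11.3% lower against ARP1, 7.68% and 10.8% against OCI-MY5). BNIP3L, which acts in the removal of mitochondria, was higher in OPM2 by 1.49 ± 0.25 and 2.21 ± 0.25 (limma, adjusted p = 0.0213 and 0.00747). BID, which carries the signal of death receptors to mitochondria, was lower by a log2 difference of −1.75 ± 0.27 and −1.55 ± 0.27 (adjusted p = 0.0174 and 0.0224), with intensities of 976 and 1440 in OPM2 and 3265 to 4197 in the other lines. BCL2L2, the survival gene of BCL-W, was lower in OPM2 than in ARP1 (−1.66 ± 0.38, adjusted p = 0.0465).

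Of 16 tested genes of the apoptosome, caspases and their inhibitors, 2 were called higher in OPM2 than in ARP1 and 3 than in OCI-MY5, and none was called lower. Over all genes 6.71% and 7.68% were called higher and 11.3% and 10.8% lower. With so few genes these counts are not read as a direction of the list. CASP6, an executioner caspase, was higher by 1.69 ± 0.29 and 1.44 ± 0.29 (limma, adjusted p = 0.0232 and 0.0333), and CFLAR, which restrains CASP8, by 1.23 ± 0.24 and 1.09 ± 0.24 (0.0307 and 0.0407). CASP8 itself was higher than in OCI-MY5 (1.31 ± 0.29, adjusted p = 0.0402). The same shares of all genes stand beside the regulators of MCL1 and of BH3-only proteins. Of 18 tested, 1 was called higher in OPM2 than in ARP1, the transcription factor E2F1 (1.18 ± 0.28, limma, adjusted p = 0.0478). Against OCI-MY5 DYNLL1, the dynein light chain, was higher (1.06 ± 0.23, adjusted p = 0.0409), and FBXW7, part of a ubiquitin ligase that marks MCL1, was lower (−1.29 ± 0.24, adjusted p = 0.0273).

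None of these 3 lists had a call between ARP1 and OCI-MY5, where 0.447% of all genes had one, or between the fractions. The median fraction difference was 0.24 for the other family genes, 0.03 for the caspase list and −0.04 for the regulators, against 0.03 for all genes. Of those with 1 sign in all lines, BCL2L15 differed by 0.92 ± 0.78, BIK by 0.32 ± 0.30 and BCL2L13 by −0.16 ± 0.12 (CD24+ minus CD24−, log2, SD, n = 3 lines). BCL2L15 was near background. On the CD24− arrays it was at 15.9 in OCI-MY5 and 52.7 in ARP1, below the highest TrpnX controls there (45.5 and 64.5). Its largest difference, 1.81, was that of OCI-MY5. CFLAR differed by 0.23 ± 0.15, and of the regulators HUWE1, a ligase of MCL1, differed by 0.44 ± 0.55, DDIT3 by 0.42 ± 0.17, FOXO1 by −0.31 ± 0.48 and BTRC by −0.26 ± 0.21.

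The genes whose pattern over the 6 arrays was most like that of each survival gene, by Pearson's r among brightest probe sets tested, are given as a description, since 6 arrays from 3 lines share line, depth and array. For BCL2 they were ZWINT (r = 0.996), SAMD9L (0.994) and ATP6V0A1 (0.986), among 5420 genes. For MCL1 they were PTPN14 (0.998), RPL10L (0.995) and LILRA6 (0.994), among 11173. For BCL2L1 they were RPGR (0.988), ACOT8 (0.971) and APH1A (0.964), among 10836.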

How the data were processed

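Sorted CD24+ and CD24− fractions of 3 lines were measured on 6 arrays. Per the series' design text and the submitters' processing notes, the authors computed values with MAS5 in Affymetrix Expression Console 1.1; the deposited table holds their linear MAS5 intensity for every probe set; a trimmed mean of 500 on each array shows a scaling to a common target. No detection calls were used. Of 54675 probe sets 62 controls were left out, and 41091 have 1 gene symbol, updated through RefSeq by Entrez ID. Intensities were taken as log2(intensity + 16), which understates changes of dim genes. The 27307 probe sets with a mean of at least 6.36, the median, were tested with limma 3.58.1 under R 4.3.3 (moderated tests from lmFit and eBayes, both sides, Benjamini-Hochberg at 0.05 over all of them within each comparison): CD24+ against CD24− without a block, and the 3 pairs of lines with the fractions of a line as its 2 samples. These p-values measure the spread between single arrays. Ratios are differences of log2 values of the probe sets with the highest mean and were tested by exact permutation. The fits were also run on simulated data. The simulated fraction comparison held no differences between lines, which the real arrays have, so it does not show how that test performs here.

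Titles number the samples by line. Same-line arrays deviated together from their fraction's mean (r = 0.704 in OPM2, 0.632 in ARP1, 0.633 in OCI-MY5), and being of 1 line pairs them. Named were all members, list genes past the threshold, up to 4 per list with 1 sign in all lines and the largest mean difference, and the 3 genes most like each survival gene, among those that vary by a similar amount or more (an SD of at least 0.5 times its own). Members and lists were chosen with earlier results of these data known. Alternatives were pseudocounts, filters, scalings, probe set choices, the block and left-out arrays.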

Additional observations from a re-analysis of the deposited data

How the results depend on the processing

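No member probe set passed between the fractions in any of the 20 alternatives run, the replicate block included, and the block changed no call. The counts between lines moved with the settings. Between OPM2 and ARP1, where 2 passed, 0 did without a filter on dim probe sets (2.35% of all), 1 with median centring (10.1%), 4 with an intensity trend (24.5%) and 1 with the fraction as a covariate (10.8%), and 0 to 7 when 1 array was left out. The 7 were reached without the CD24− array of OPM2, where 29.9% of all probe sets passed, and the 0 without any 1 array of ARP1 or OCI-MY5, where 2% to 6.18% did. Between OPM2 and OCI-MY5, where 4 passed, 2 did with a pseudocount of 1 (12.3% of all), 0 without a filter (2.18%), 1 each with centring (10.7%), with 1 probe set per gene (26.1%) and with the fraction as a covariate (11.1%), and 0 to 6 when 1 array was left out. There the 6 were reached without the CD24− array of OPM2 (30.5% of all), 2 without its CD24+ array (16%), and 0 without any 1 array of ARP1 or OCI-MY5 (2.76% to 5.69%). Between ARP1 and OCI-MY5, where 0 passed, 2 did with a pseudocount of 64 (2.05% of all), with the filter at the 75th percentile (11.4%), with 1 probe set per gene (2.62%) and with an intensity trend (5.80%), namely BCL2 and BMF, and 0 to 1 when 1 array was left out. Quantile normalization without the CD24+ array of OPM2, added after seeing the data, gave 2, 1 and 1 in the same order of comparisons. No alternative turned the direction of the 6 called differences. The fraction difference in the log2 ratio of MCL1 to BCL2, −0.39, turned to 0.15 with the mean of all probe sets and to 0.12 with those past the filter, and ran from −0.50 to −0.25 when a line was left out. For MCL1 to BCL2L1, −0.03, it turned to 0.15 with quantile normalization, to 0.18 with the mean of probe sets past the filter and to 0.33 without OCI-MY5, and was −0.28 without OPM2; its spread between lines, 1.102, was 0.39 with that mean. For BCL2 to BCL2L1, 0.35, it turned to −0.22 with the mean of all probe sets and to −0.029 without OPM2, and was 0.83 without OCI-MY5. The cause of these changes was not tested. When 1 array was left out, a line with 1 array was assumed to vary like the others.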
